A study of Mus musculus with 6 samples.

Results

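The proteasome genes described here were all gene symbols that start with Psma, Psmb, Psmc, Psmd, Psme, Psmf or Psmg followed by a number, with pseudogene names left out. This gave 50 genes of the 24537 listed. They were measured by RNA-seq of total RNA in mouse cerebellum from males at 6 weeks of age. Of the 6 libraries, 3 came from carriers of 1 null Reln allele (heterozygous; labelled strain Orl/BalbC) and 3 from wild-type mice (labelled strain C57BL/6). Genotype and labelled strain therefore cannot be told apart, and each difference below is one of both together. Separate animals are not stated for the libraries of either group, so p-values measure the spread between these libraries. Levels are FPKM, read fragments scaled for transcript length and library depth. Between libraries they still carry shifts common to most genes (median-of-ratios factors of 0.838 to 1.13). Between genes they depend on the transcript lengths assumed. A log2 difference compares means of log2(FPKM + 1) as heterozygous minus wild type, and makes changes of weakly expressed genes look smaller than they are.

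The proteasome is the barrel-shaped protease that degrades proteins tagged with ubiquitin. Its 20S core is built from outer rings of alpha subunits (Psma genes) and inner rings of beta subunits (Psmb genes), among which Psmb5, Psmb6 and Psmb7 carry the catalytic sites. Interferon induces Psmb8, Psmb9 and Psmb10, which take the places of Psmb5, Psmb6 and Psmb7 in the immunoproteasome. The 19S cap recognises ubiquitin and unfolds substrates with its Psmc ATPases and Psmd subunits, while Psme genes encode other activators and Psmg genes assembly chaperones. Neurons depend on the proteasome for protein turnover at synapses, and the transcription factor Nfe2l1 is known to raise proteasome genes together when the protease is short.

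RefSeq promoter windows (GRCm38.p6, the assembly also called mm10) were searched for the motif that Nfe2l1 and Nfe2l2 are known to bind. Shown are the 100 bases before the start of the catalytic genes Psmb5 and Psmb6, each followed by its inducible counterpart, because this is where the constitutive and the interferon-induced subunit can be set side by side. Capitals mark a match to the core of the antioxidant response element, TGACNNNGC, searched on both strands. The stretches lie at chr14:54617996-54618095 (minus strand) for Psmb5, chr17:34198095-34198194 (plus strand) for Psmb8, chr11:70525257-70525356 (plus strand) for Psmb6 and chr17:34187331-34187430 (minus strand) for Psmb9.
Psmb5: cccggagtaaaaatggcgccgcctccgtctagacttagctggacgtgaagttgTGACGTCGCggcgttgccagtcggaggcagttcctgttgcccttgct
Psmb8: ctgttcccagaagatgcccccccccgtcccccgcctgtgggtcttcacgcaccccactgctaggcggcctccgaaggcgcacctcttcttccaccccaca
Psmb6: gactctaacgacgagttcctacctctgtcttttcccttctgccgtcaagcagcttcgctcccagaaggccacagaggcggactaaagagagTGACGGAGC
Psmb9: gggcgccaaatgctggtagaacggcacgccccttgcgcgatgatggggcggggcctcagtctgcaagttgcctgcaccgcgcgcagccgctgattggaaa

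The match began 47 bases before the start in Psmb5 and 9 bases before it in Psmb6, while the windows shown for Psmb8 and Psmb9 held none. Over the whole window of 250 bases before to 50 after a start, 6 of the 42 proteasome genes with an entry (14.3%) held the core, namely Psmb5, Psmb6, Psmc6, Psmd9, Psmd12 and Psme4. The share was 14% of the 27025 genes in the RefSeq table, so the letters were about as frequent in proteasome promoters as in others. The NF-Y box, CCAAT, stood in 35.7% of the proteasome promoters, against 41.1% of all. The core of the interferon response element, searched as GAAANNGAA, stood in 16.7% (7 genes: Psmb3, Psmb4, Psmc2, Psmd4, Psmd9, Psme1 and Psmg4), against 9.76% of all. Of the 5 interferon-inducible genes Psmb8, Psmb9, Psmb10, Psme1 and Psme2, Psme1 alone held it in this window. These matches are descriptions of sequence, not of binding. No entry was found for Psma8, Psmb1, Psmb2, Psmb7, Psmc3, Psmd3, Psmd7 and Psmg2.

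As a check of the labels, Reln itself was at 0.540 ± 0.037 FPKM in heterozygous and 0.848 ± 0.086 FPKM in wild-type libraries (SD, n = 3 each; two-sided exact permutation p = 0.1, the smallest possible with 3 against 3). Markers of granule cells (summed level 519 to 542 FPKM in heterozygous and 483 to 538 in wild-type libraries) and of Purkinje cells (310.0 to 324 and 238 to 324) were high in every library. Approximate depths, read from the steps between low FPKM values, were 23030000 to 27300000 reads in heterozygous and 26620000 to 28480000 in wild-type libraries. Heterozygous replicate 2 and wild-type replicate 2 lay at opposite ends of the first principal component (63.9% of the variance), and their median-of-ratios factors were 1.13 and 0.838, against 0.990 to 1.09 in the other libraries. Summed choroid plexus markers split both groups, with 3.7, 163 and 7.1 FPKM in the heterozygous and 286, 0.8 and 157 FPKM in the wild-type libraries (replicates 1, 2 and 3), and red cell markers ranged from 159 to 271 in heterozygous and 142 to 395 in wild-type libraries. Across all tested genes, 83.1% had a log2 difference above 0 (median 0.083, and 0.013 after median-of-ratios scaling). Above 0 were 6 of 7 granule cell markers (median 0.091, and -0.0070 scaled) and all 6 Purkinje cell markers (0.15, and 0.058 scaled). Of 5 endothelial markers 2 were tested, and 1 was above 0 (median 0.048, and -0.037 scaled). All 4 tested choroid plexus and all 6 tested red cell markers were below 0. In glial cells, all 6 oligodendrocyte markers were above 0 (median 0.26, and 0.18 scaled). So were all 5 of astrocytes (0.18, and 0.095 scaled) and the 4 tested of 8 microglia markers (0.30, and 0.22 scaled). Without both libraries numbered 2 the medians of oligodendrocyte, astrocyte and microglia markers were 0.012, -0.028 and -0.084, beside -0.034 for all tested genes. The libraries left in that setting had summed choroid plexus markers of 3.7 and 7.1 FPKM in heterozygous and 286 and 157 FPKM in wild-type libraries. Genotype and choroid plexus content therefore cannot be told apart in it. Summed oligodendrocyte markers ranged from 174 to 237 FPKM in heterozygous and 133 to 212 FPKM in wild-type libraries, and summed astrocyte markers from 432 to 489 FPKM in heterozygous and 329.96 to 479 FPKM in wild-type libraries. The part of these cell types in the results below was not tested.

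Every tested proteasome gene had a log2 difference above 0, that is a higher mean of log2(FPKM + 1) in heterozygous cerebellum, and none of these differences passed the test against the spread between libraries. Of the 50 genes, 36 had a mean of at least 1 FPKM and entered the test across 6358 genes. The 36 differences ran from 0.0016 for Psme3 to 0.35 for Psmb5, with a median of 0.18. Across the 6358 genes, 83.1% were above 0 and the median was 0.083, and 34 of the 36 proteasome genes lay above that median. In limma 0 of the 36 passed an adjusted p of 0.05 (smallest adjusted p = 0.90), beside 0.0786% of all tested genes, and 3 had an unadjusted p under 0.05 (Psmb3, Psmb4 and Psmb5), beside 3.33% of all. The ratio of mean FPKM, heterozygous over wild type, ran from 0.989 for Psme3, the 1 tested member whose mean FPKM was lower in heterozygous libraries, to 1.31 for Psmb5.

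Part of this shift was common to the whole library. After median-of-ratios scaling, which sets the typical gene equal between libraries, 34 of the 36 remained above 0, against 57.1% of all genes, and the medians were 0.094 and 0.013. Psmd7 (-0.013) and Psme3 (-0.085) turned below 0 there. Scaling to an equal summed FPKM moved the median of all genes to -0.018 and that of the proteasome genes to 0.058. Without heterozygous replicate 2 and wild-type replicate 2, the medians were 0.048 for the proteasome genes and -0.034 for all genes. In that setting 28 of the 36 were above 0, against 34.7% of all genes. The 8 below 0 were Psmc5, Psmd1, Psmd2, Psmd5, Psmd7, Psmd12, Psme3 and Psmg3. The libraries left there also differed between groups in choroid plexus markers (median -1.9), which cannot be told apart from genotype. Without heterozygous replicate 2 alone, the proteasome median was 0.11. The result also depended on the weight given to a library. When limma estimated a weight for each library, wild-type replicate 3 received 194 and the other libraries 0.122 to 1.79, the iteration stopped before it converged, and 25 of the 36 proteasome genes passed, all higher, along with 2508 genes in all.

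**Figure D1:**
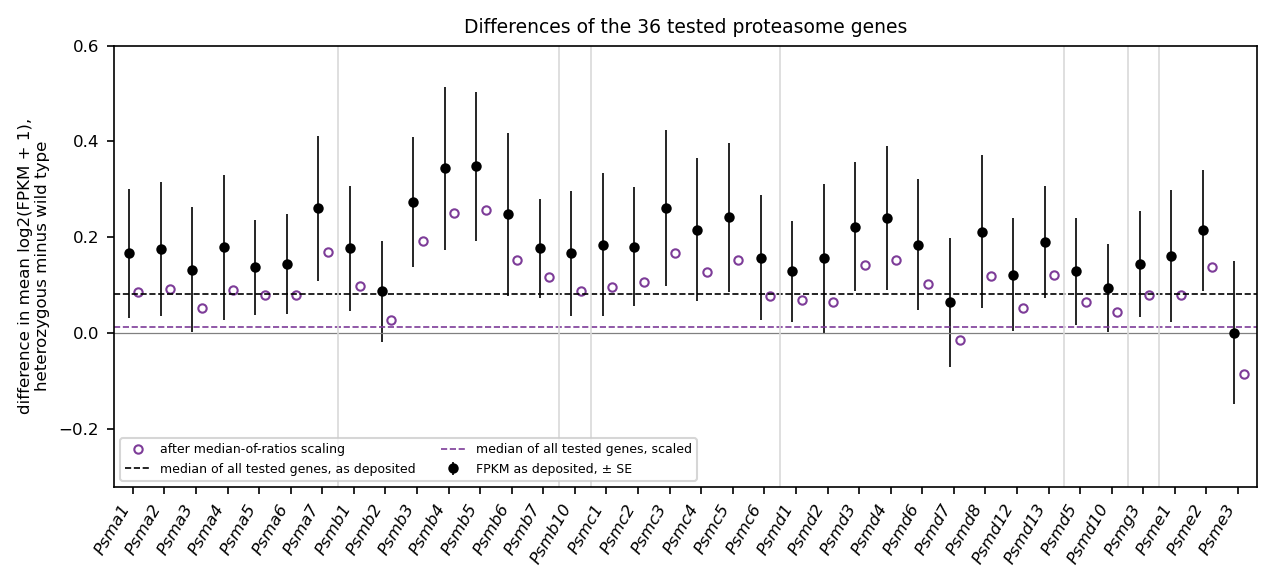
Log2 difference (of FPKM + 1), heterozygous minus wild type, for the 36 tested proteasome genes, ordered by role. Filled points are FPKM as deposited with the limma SE, open points are after median-of-ratios scaling, and dashed lines are the medians of all tested genes (0.083 as deposited and 0.013 scaled). In both scalings 34 of the 36 genes lie above the dashed line of their scaling, and the SE bars are wide beside the differences.

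In the outer alpha ring all 7 tested Psma genes had a higher mean, with a median of 0.17 and a range of 0.13 to 0.26. Psma7, the subunit that the testis-specific Psma8 replaces, stood at 12.8, 14.6 and 12.3 FPKM in heterozygous libraries and at 11.4, 10.9 and 10.3 FPKM in wild-type libraries, in the order of replicates 1, 2 and 3 used throughout. Its lowest heterozygous library lay above its highest wild-type library (log2 difference 0.26, SE 0.15, limma adjusted p = 0.90). After median-of-ratios scaling the groups of Psma7 overlapped. Psma4, the next most abundant alpha gene, stood at 12.5, 12.99 and 11.6 FPKM in heterozygous and 12.5, 9.54 and 10.5 FPKM in wild-type libraries, so that wild-type replicate 1 was level with heterozygous replicate 1 (0.18, SE 0.15).

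The least abundant genes of the ring were Psma5 and Psma6, constitutive subunits like Psma7. Psma5 had 1.58, 1.74 and 1.48 FPKM in heterozygous and 1.48, 1.20 and 1.42 FPKM in wild-type libraries, a separation of 1.484 against 1.480 FPKM at its narrowest (0.14, SE 0.099). Psma6 had 1.88, 1.95 and 1.70 FPKM in heterozygous and 1.67, 1.59 and 1.46 FPKM in wild-type libraries, also without overlap (0.14, SE 0.10). After median-of-ratios scaling the groups of Psma6 overlapped. Psma3 differed least among the alpha genes, at 4.59, 4.78 and 3.98 FPKM against 4.37, 3.70 and 3.85 FPKM in wild type (0.13, SE 0.13). Psma8 was listed at 0.0020 to 0.0088 FPKM in all libraries, under 1 read in each, and was not tested.

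The inner beta ring held the 3 genes with the largest differences among the 36, Psmb5, Psmb4 and Psmb3. All 7 constitutive Psmb genes had a higher mean, with a median of 0.25. Psmb5, which encodes the chymotrypsin-like catalytic subunit (ENSMUSG00000022193, chromosome 14, 54614119 to 54618022, minus strand), stood at 12.7, 16.9 and 11.5 FPKM in heterozygous and 11.4, 9.78 and 10.1 FPKM in wild-type libraries. The groups did not overlap, by a margin of 11.54 against 11.43 FPKM (0.35, SE 0.16, limma adjusted p = 0.90), and after median-of-ratios scaling they overlapped. Psmb4, a non-catalytic beta subunit (chromosome 3, 94884093 to 94886961, minus strand), stood at 21.1, 31.2 and 19.997 FPKM in heterozygous and 21.4, 16.9 and 17.2 FPKM in wild-type libraries (0.34, SE 0.17, limma adjusted p = 0.90). Here wild-type replicate 1 was above heterozygous replicates 1 and 3, and heterozygous replicate 2 stood apart from the other 5. Without both libraries numbered 2 the differences were 0.16 for Psmb5 and 0.093 for Psmb4.

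Psmb3, another structural beta subunit, had 5.05, 6.43 and 4.74 FPKM in heterozygous and 4.76, 4.13 and 3.94 FPKM in wild-type libraries (0.27, SE 0.14). Psmb6, the caspase-like catalytic subunit, was the most abundant proteasome gene, at 38.5, 40.8 and 36.8 FPKM in heterozygous and 36.8, 30.7 and 30.1 FPKM in wild-type libraries. Heterozygous replicate 3 and wild-type replicate 1 were level (36.79 and 36.80 FPKM), and the difference was 0.25 (SE 0.17). Psmb7, the trypsin-like subunit, had 1.78, 1.98 and 1.66 FPKM in heterozygous and 1.68, 1.36 and 1.42 FPKM in wild-type libraries (0.18, SE 0.10). Psmb1 had 4.29, 4.87 and 3.81 FPKM against 4.21, 3.37 and 3.54 FPKM in wild type (0.18, SE 0.13). Psmb2 differed least of the ring, with 1.96, 1.80 and 1.70 FPKM in heterozygous and 1.87, 1.49 and 1.61 FPKM in wild-type libraries (0.087, SE 0.10).

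**Figure D2:**
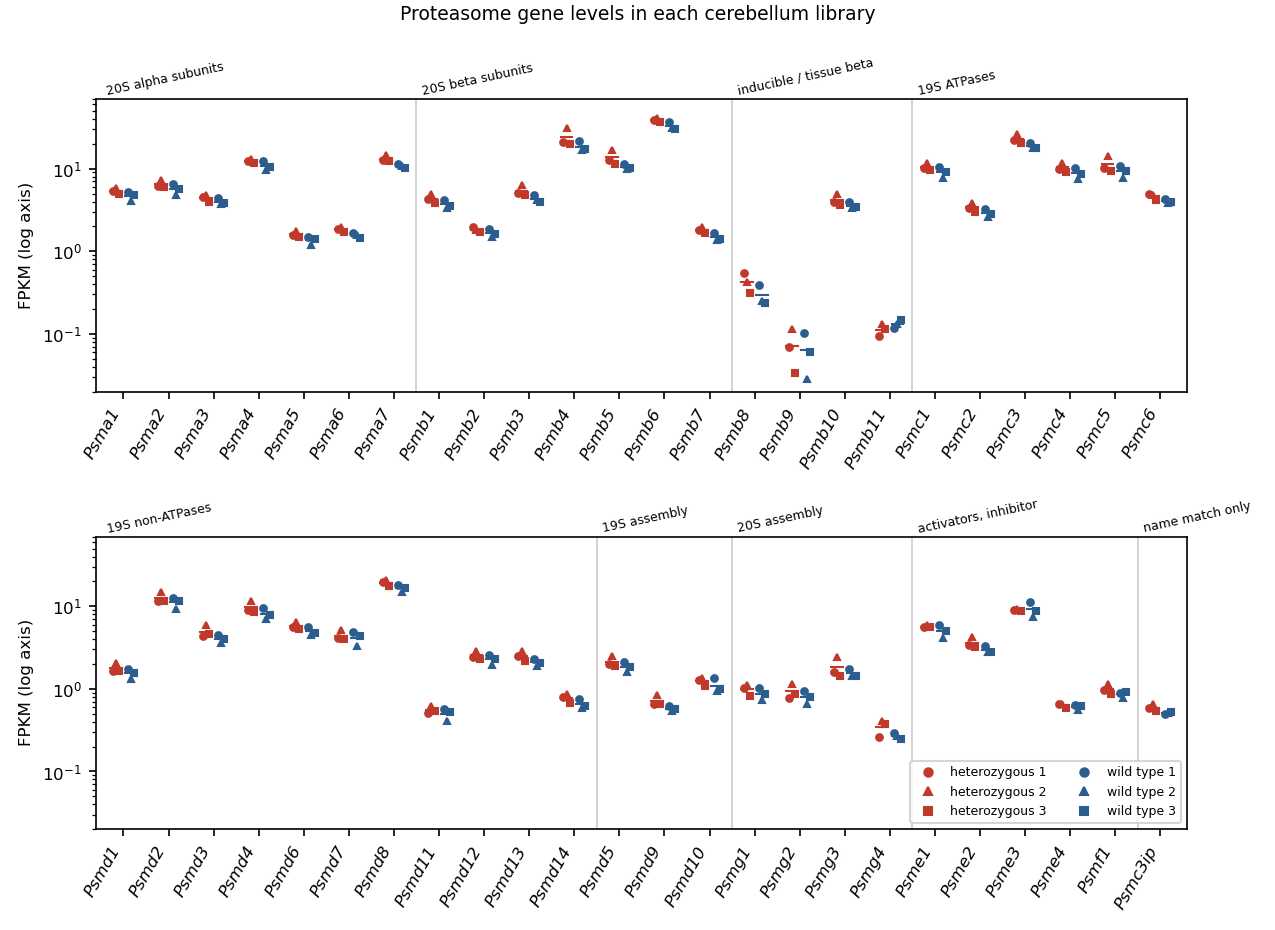
FPKM of 48 proteasome genes in each library on a log axis, grouped by role, with heterozygous libraries in red to the left and wild-type libraries in blue to the right of each gene. Symbols mark the replicate number and short bars the group means (n = 3). The spread between genes of a role (1.65 FPKM on average for Psmb7 and 35.6 for Psmb6) is far wider than that between groups, and Psma8 and Psme2b, at or near 0, are not drawn.

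Although the 14 constitutive core subunits are present in equal number in the assembled barrel, their transcripts were not. The mean over the 6 libraries ran from 1.49 FPKM for Psma5 to 35.6 FPKM for Psmb6, and Psmb6 was the highest of the 14 in each of the 6 libraries. Summed over the 14 genes, the core had 130.4, 153 and 122 FPKM in heterozygous and 125, 104 and 106 FPKM in wild-type libraries, a mean of 135 ± 16 against 112 ± 12 FPKM (SD, n = 3 each). The groups overlapped, with heterozygous replicate 3 under wild-type replicate 1. After median-of-ratios scaling the sums were 131, 135 and 123 in heterozygous and 115, 124 and 106 in wild-type libraries, and they still overlapped. Psmb6 made up 29.5%, 26.6% and 30.1% of the core sum in heterozygous and 29.4%, 29.7% and 28.4% in wild-type libraries. Psmb4 made up 16.2%, 20.3% and 16.4% in heterozygous and 17.1%, 16.3% and 16.2% in wild-type libraries, so its share stood out in heterozygous replicate 2 alone. For each of the 14 genes the shares of the groups overlapped. The share of Psmb7 varied least, with a coefficient of variation of 2.09% over the 6 libraries, against 14.04% for its FPKM.

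The inducible subunits showed a very uneven picture. Psmb8 (chromosome 17, 34197721 to 34201454, plus strand) had 0.549, 0.430 and 0.308 FPKM in heterozygous and 0.389, 0.251 and 0.236 FPKM in wild-type libraries, about 13 to 26 reads in each. The ratio of its group means was 1.47, with groups that overlapped. Psmb9 (chromosome 17, 34181987 to 34187764, minus strand) had 0.068, 0.113 and 0.033 FPKM in heterozygous and 0.101, 0.028 and 0.060 FPKM in wild-type libraries, about 2.2 to 8.9 reads, and its highest libraries came from both groups. Its span overlaps that of Tap1 on the other strand. Both genes lay under the minimum for the test, and with no minimum neither passed (limma adjusted p = 0.97 for Psmb8 and 1.00 for Psmb9).

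Psmb10 was different in level. It stood at 3.93, 4.94 and 3.61 FPKM in heterozygous and 3.96, 3.37 and 3.40 FPKM in wild-type libraries (0.17, SE 0.13, limma adjusted p = 0.90). Set against the constitutive subunit it replaces, Psmb8 was at 4.32%, 2.54% and 2.67% of the level of Psmb5 in heterozygous and 3.40%, 2.57% and 2.33% in wild-type libraries. Psmb9 was at 0.178%, 0.277% and 0.0908% of Psmb6 in heterozygous and 0.274%, 0.0926% and 0.2% in wild-type libraries. Psmb10, by contrast, was above Psmb7 in every library, by a factor of 2.20, 2.49 and 2.17 in heterozygous and 2.36, 2.47 and 2.40 in wild-type libraries. For all 3 pairs the groups overlapped. The spans of Psmb7 and Psmb10 each overlap other annotated genes, so that reads of those could be counted with them. Psmb11, the beta subunit of the thymus proteasome and a close neighbour of Psmb5 on chromosome 14 (54621433 to 54629556), had 0.0937 to 0.130 FPKM in heterozygous and 0.116 to 0.146 FPKM in wild-type libraries, against a mean of 12.1 FPKM for Psmb5.

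**Figure D3:**
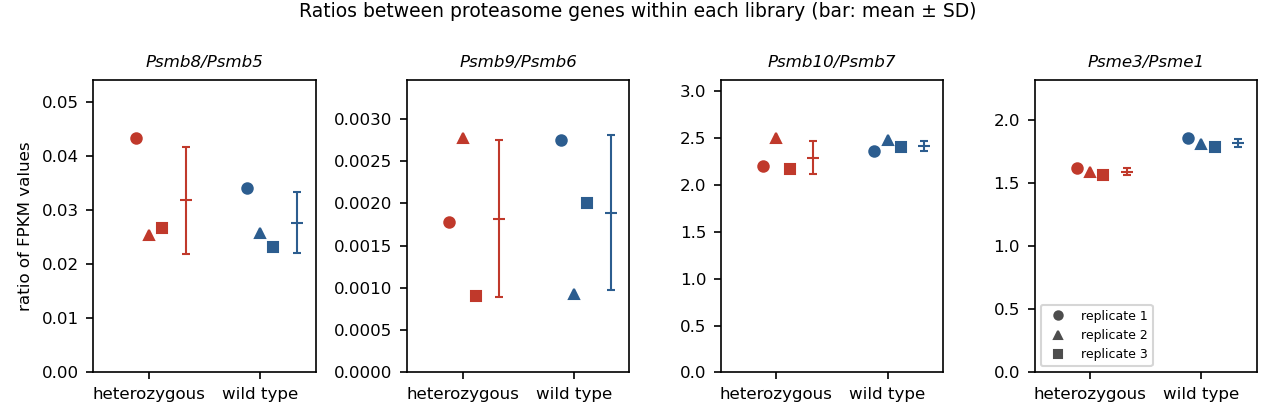
Ratio of FPKM values within each library for the 3 inducible subunits over the constitutive subunit each replaces, and for Psme3 over Psme1, with heterozygous libraries left and wild-type libraries right (bars: mean ± SD, n = 3). Ratios do not depend on how a library is scaled. The groups overlap in the first 3 panels, while Psme3/Psme1 lies between 1.57 and 1.62 in heterozygous and between 1.79 and 1.86 in wild-type libraries.

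Microglia, a brain cell type known to express immunoproteasome genes, were read from 8 markers. Their summed level was 10.2, 18.4 and 10.9 FPKM in heterozygous and 13.2, 7.6 and 9.6 FPKM in wild-type libraries. Heterozygous replicate 2 was highest for these markers, as it was for Psmb9 and Psmb10 but not for Psmb8. It was also the highest library for 56.3% of all tested genes. The part of these cells in the levels of the inducible subunits was not tested, and in bulk tissue fewer cells and less RNA per cell cannot be told apart. Of the 10 interferon and antigen-loading genes examined, 3 were tested and none passed. Their median was -0.012 (-0.070 after median-of-ratios scaling), and 1 of the 3 was above 0, beside 83.1% of all tested genes. Tapbp, which edits the peptide cargo of class I molecules, had 2.32, 3.03 and 2.38 FPKM in heterozygous and 2.88, 1.83 and 2.19 FPKM in wild-type libraries (0.12, SE 0.12). B2m, the light chain of class I molecules, had the lowest difference, with 8.61, 11.7 and 9.73 FPKM against 15.0, 6.99 and 10.3 FPKM in wild type (-0.046, SE 0.17).

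In the base of the 19S cap, all 6 ATPase genes had a higher mean, with a median of 0.20. These ATPases form the ring that unfolds substrates and opens the gate of the core. Psmc3 was the most abundant, at 22.0, 26.0 and 20.3 FPKM in heterozygous and 20.6, 17.9 and 17.8 FPKM in wild-type libraries (0.26, SE 0.16). Psmc5 had 10.1, 14.2 and 9.46 FPKM in heterozygous and 10.7, 7.69 and 9.44 FPKM in wild-type libraries (0.24, SE 0.16). Without both libraries numbered 2 the difference of Psmc5 was -0.040, beside a median of -0.034 for all tested genes. Psmc2 had 3.38, 3.82 and 3.02 FPKM against 3.21, 2.62 and 2.82 FPKM in wild type (0.18, SE 0.12), and Psmc6 had 4.99, 4.82 and 4.18 FPKM against 4.35, 3.87 and 3.995 FPKM in wild type (0.16, SE 0.13). All 6 ATPase genes overlapped between groups. Psmc1 (0.19) and Psmc4 (0.22) lay between these.

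Of the 11 other 19S subunits that the naming rule takes in, 9 were tested and all 9 had a higher mean, with a median of 0.19. Without both libraries numbered 2, 5 of the 9 were above 0 (median 0.027), beside 34.7% of all tested genes (median -0.034). Psmd2 (-0.086), Psmd7 (-0.15), Psmd12 (-0.016) and Psmd1 (-0.0021) were below 0 there. Psmd4, which encodes a receptor for ubiquitin chains, had 9.13, 11.7 and 8.54 FPKM in heterozygous and 9.46, 6.97 and 7.89 FPKM in wild-type libraries (0.24, SE 0.15). Psmd3, a lid scaffold subunit, had 4.34, 5.88 and 4.57 FPKM in heterozygous and 4.53, 3.63 and 4.03 FPKM in wild-type libraries (0.22, SE 0.13). At the other end, Psmd7, the partner of the lid deubiquitinase, had 4.09, 5.15 and 3.99 FPKM in heterozygous and 4.89, 3.35 and 4.33 FPKM in wild-type libraries (0.065, SE 0.13). For Psmd7, wild-type replicates 1 and 3 were both above heterozygous replicates 1 and 3. Psmd12, another lid subunit, had 2.47, 2.87 and 2.33 FPKM against 2.59, 1.94 and 2.29 FPKM in wild type (0.12, SE 0.12).

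The most abundant of these subunits was Psmd8 of the lid, with 19.7, 20.7 and 17.5 FPKM in heterozygous and 18.1, 15.0 and 16.5 FPKM in wild-type libraries (0.21, SE 0.16). Psmd2, the docking subunit for shuttle factors, had 11.5, 15.0 and 11.5 FPKM in heterozygous and 12.8, 9.24 and 11.7 FPKM in wild-type libraries (0.16, SE 0.16). Psmd14, the deubiquitinase that removes ubiquitin from substrates, had 0.794, 0.871 and 0.680 FPKM in heterozygous and 0.752, 0.580 and 0.621 FPKM in wild-type libraries. It was under the minimum for the test, as was Psmd11 (0.508 to 0.629 FPKM in heterozygous and 0.413 to 0.565 FPKM in wild-type libraries). Psmd1, Psmd6 and Psmd13, the other tested Psmd subunits of the cap, were at differences of 0.13, 0.19 and 0.19.

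Assembly factors were expressed at low levels. Psmd5, Psmd9 and Psmd10 are chaperones that help build the 19S base and leave it before it is complete. Psmd5 had 1.99, 2.49 and 1.91 FPKM in heterozygous and 2.13, 1.62 and 1.84 FPKM in wild-type libraries (0.13, SE 0.11). Psmd10, which encodes gankyrin and was the least abundant tested member, had 1.27, 1.34 and 1.09 FPKM in heterozygous and 1.34, 0.934 and 1.01 FPKM in wild-type libraries (0.095, SE 0.092). Psmd9 had 0.660, 0.843 and 0.655 FPKM in heterozygous and 0.616, 0.534 and 0.575 FPKM in wild-type libraries. The groups of Psmd9 did not overlap, but it lay under the minimum, and with no minimum it did not pass (limma adjusted p = 0.97).

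Among the Psmg genes, whose products pair to guide the alpha ring, Psmg3 alone was tested. It had 1.60, 2.43 and 1.45 FPKM in heterozygous and 1.76, 1.43 and 1.42 FPKM in wild-type libraries, with heterozygous replicate 2 standing apart (0.14, SE 0.11). Psmg1 had 1.02, 1.11 and 0.828 FPKM against 1.02, 0.739 and 0.878 FPKM in wild type. Psmg2 had 0.785, 1.15 and 0.862 FPKM against 0.956, 0.664 and 0.801 FPKM in wild type. Psmg4, at about 3.6 to 6.1 reads per library, had 0.259, 0.405 and 0.371 FPKM in heterozygous and 0.289, 0.269 and 0.248 FPKM in wild-type libraries. In these 4 genes the groups overlapped.

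The alternative activators included Psme3, which had the lowest difference of the 36 both as deposited and after median-of-ratios scaling. Without both libraries numbered 2 Psmd7 was lowest (-0.152, and -0.150 for Psme3). Psme3 encodes the nuclear activator that opens the core without ubiquitin, and it had 9.01, 9.39 and 8.74 FPKM in heterozygous and 11.2, 7.41 and 8.87 FPKM in wild-type libraries (0.0016, SE 0.15, limma adjusted p = 1.00). Psme1 and Psme2, neighbours on chromosome 14 (55578123 to 55581529 and 55587441 to 55591113), encode the subunits of the interferon-inducible activator ring. Psme1 had 5.56, 5.90 and 5.57 FPKM in heterozygous and 6.01, 4.10 and 4.95 FPKM in wild-type libraries (0.16, SE 0.14). Psme2 had 3.39, 4.23 and 3.19 FPKM in heterozygous and 3.27, 2.81 and 2.79 FPKM in wild-type libraries (0.21, SE 0.13).

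The ratio of Psme3 to Psme1 was 1.62, 1.59 and 1.57 in heterozygous and 1.86, 1.81 and 1.79 in wild-type libraries, with no overlap, a pair chosen after values were seen. Against the other 35 tested members, the ratio of Psme3 was lower in all heterozygous than in all wild-type libraries in 16 cases, more than for any other member, Psmb5 coming next with 7 ratios without overlap. Over all 630 pairs of tested proteasome genes, 6.51% of the ratios did not overlap between groups, against 10.6% of all pairs of tested genes. Psme4, the activator known from sperm and DNA repair, had 0.649, 0.656 and 0.585 FPKM in heterozygous and 0.637, 0.555 and 0.615 FPKM in wild-type libraries. Psmf1, which encodes an inhibitor of the core, had 0.957, 1.15 and 0.876 FPKM in heterozygous and 0.883, 0.780 and 0.905 FPKM in wild-type libraries. Neither reached the minimum for the test.

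The rule also took in 2 symbols that were given no role in the complex here. Psmc3ip encodes a partner of meiotic recombination proteins and not a proteasome subunit. It had 0.580, 0.661 and 0.544 FPKM in heterozygous and 0.502, 0.508 and 0.530 FPKM in wild-type libraries. Its groups did not overlap as deposited, but did after median-of-ratios scaling. Psme2b was at or near 0 in 4 libraries, at 0.151 FPKM in heterozygous replicate 3 and 0.0555 FPKM in wild-type replicate 1. Psme2 and Psme2b may share reads, so the split between them is uncertain.

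Heterozygous replicate 2 was the highest library for 31 of the 36 and wild-type replicate 2 the lowest for 29, against 56.3% and 78.4% of all tested genes. Heterozygous replicate 1 was above wild-type replicate 1 for 18 of the 36 and heterozygous replicate 3 for 5, against 26.4% and 16.6% of all tested genes, so wild-type replicate 1 lay within the heterozygous range for most members. After median-of-ratios scaling, heterozygous replicate 2 was highest for 20 and heterozygous replicate 1 for 12, against 24.0% and 20.2% of all tested genes. Wild-type replicate 3 was then the lowest for 28, against 26.9% of all. Relative to each gene's own mean over the 6 libraries, the median proteasome gene then stood at 0.095, 0.11 and -0.016 (log2) in heterozygous and at -0.045, -0.023 and -0.13 in wild-type libraries.

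Groups that did not overlap were found for 4 of the 36 as deposited (Psma5, Psma6, Psma7 and Psmb5), beside 4.81% of all tested genes that were higher in every heterozygous library. After scaling there were 7 (Psma1, Psma2, Psma5, Psmb4, Psmb7, Psmd1 and Psmd3), beside 7.38% of all. Only Psma5 was in both sets. The coefficient of variation over the 6 libraries had a median of 14.04% for the proteasome genes and 12.7% for all tested genes as deposited, and of 7.70% and 7.69% after scaling. Psmb4 varied most among the members in both scalings, at 24.4% and 16.4%.

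**Figure D4:**
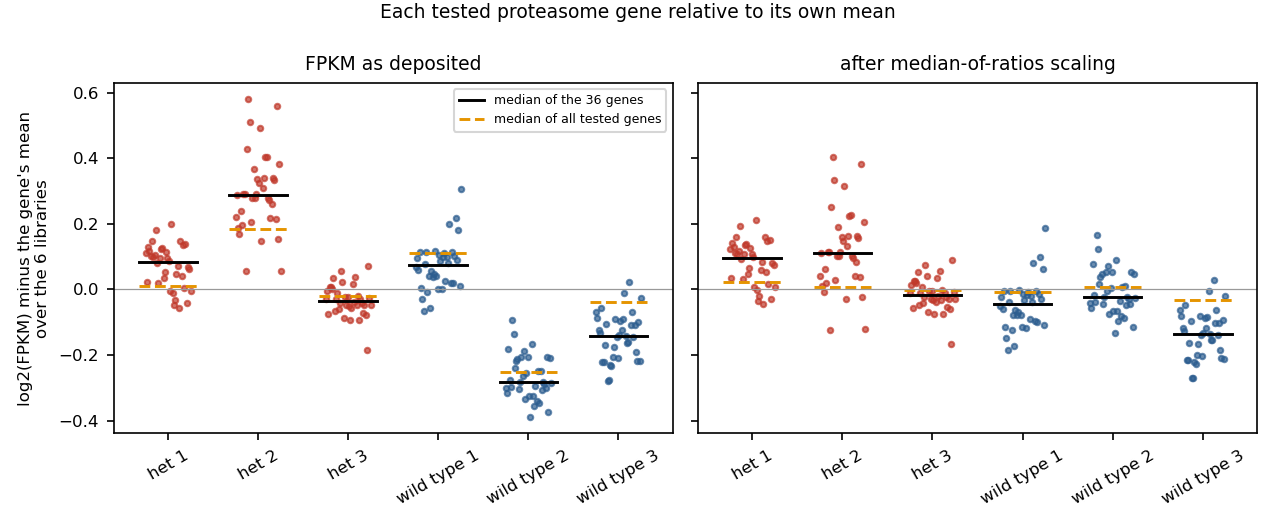
Log2 FPKM of each of the 36 tested proteasome genes minus the gene's mean over the 6 libraries, as deposited (left) and after median-of-ratios scaling (right), with heterozygous libraries in red before wild-type libraries in blue. Black lines are medians of the 36 genes and dashed orange lines medians of all tested genes. Heterozygous replicate 2 is high and wild-type replicate 2 low as deposited, and after scaling heterozygous replicates 1 and 2 are highest and wild-type replicate 3 lowest.

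No other gene examined from the ubiquitin and proteasome pathway passed the test. Of 17 proteasome parts and partners that the naming rule leaves out, 15 were tested and all 15 had a higher mean, with a median of 0.13. They ran from AI314180 (0.010), which tethers the cap to the core, to Pomp (0.24), the maturation factor of the beta ring, which had 3.71, 4.69 and 3.57 FPKM in heterozygous and 3.60, 2.83 and 3.23 FPKM in wild-type libraries. After scaling 10 of these 15 were above 0, and without both libraries numbered 2 there were 7, with a median of -0.012. Across all tested genes the shares above 0 were 57.1% and 34.7%, with a median of -0.034 in the latter setting. The 5 tested genes for ubiquitin and its activating enzymes had a median of 0.22, from Uba1 (0.12) to Rps27a (0.23), a ubiquitin fusion gene. Ubb, a polyubiquitin gene, was far more abundant than any proteasome gene, at 251, 279 and 258 FPKM in heterozygous and 247, 199 and 235 FPKM in wild-type libraries.

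The 7 tested genes of the Vcp segregase, which extracts ubiquitinated proteins for the proteasome, had a median of 0.085, beside 0.083 across all 6358 genes. Vcp was highest (0.20) and Nsfl1c lowest (0.039). After scaling 4 of the 7 were above 0 (median 0.028), and without both libraries numbered 2 there were 3 (median -0.060). Nfe2l1 had 12.5, 17.9 and 13.5 FPKM in heterozygous and 15.9, 9.87 and 13.4 FPKM in wild-type libraries (0.16, SE 0.16), and wild-type replicate 1 was above heterozygous replicates 1 and 3. Keap1, the brake on Nfe2l2, was at 0.052 (SE 0.13), while Nfe2l2 itself lay under the minimum. The 9 tested genes of the COP9 signalosome, whose subunits resemble the 19S lid, had a median of 0.16, from Cops2 (0.10) to Cops9 (0.30). The 8 genes of the chaperonin TRiC had a median of 0.21, from Cct4 (0.15) to Cct3 (0.24). After scaling all 9 and all 8 were above 0, with medians of 0.089 and 0.12. Without both libraries numbered 2, 7 of the 9 COP9 genes (median 0.035) and 5 of the 8 TRiC genes (median 0.012) were above 0. Across all tested genes, 57.1% were above 0 after scaling (median 0.013). Without both libraries numbered 2 this share was 34.7% (median -0.034).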

How the data were processed

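The authors' deposited values are FPKM per gene, 1 library per file, per the labels' protocols. Mitochondrial and ribosomal sequences were filtered, 2 bases trimmed, and reads aligned to mm10 with TopHat2 and Bowtie 1 and quantified with Cufflinks, per the labels' protocols. The submitters' processing notes also name Cuffdiff 2.1.1 for differential expression, which was not used here. The authors' annotation release and strand setting were not given in the sources used here. In heterozygous replicate 2, 40 values read as spreadsheet dates (no proteasome gene among them), and those genes were left out of every test.

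Tests used log2(FPKM + 1) in limma 3.58.1 under R 4.3.3 (trend on mean level; Benjamini-Hochberg over the 6358 genes whose mean reached 1 FPKM), at an adjusted p under 0.05. The prior from all genes counted for 54.4 degrees of freedom and a gene's own libraries for 4, so a gene's SE rests mostly on genes of like level. FPKM holds no counts, so no count test was run. Depths come from low FPKM values of 5885 single-transcript genes (GENCODE M21, tolerance 1%). Read numbers are approximate and use the longest annotated transcript of each gene, so they are too high where shorter transcripts were expressed. All 50 members matched 1 position in that annotation, and 24 overlap another gene. Median-of-ratios factors used 15942 genes. Scripts ran in Python 3.11.15 with scipy 1.17.1, numpy 2.4.6, pandas 2.3.3 and, for figures, matplotlib 3.10.9.

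Groups and replicate numbers came from the titles. The members, roles and pathway lists were chosen with earlier results of these data known. Named genes were, for each role, the highest and lowest differences, every inducible subunit, activator, inhibitor and assembly factor, and the ends of each pathway list; others named add to these. Alternatives covered the pseudocount, the minimum, scaling, the trend, sample weights, a replicate block and leaving out libraries.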

Additional observations from a re-analysis of the deposited data

How the results depend on the processing

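No proteasome gene passed an adjusted p of 0.05 in limma or in 17 of the 18 alternatives, where the smallest adjusted p was 0.19 (without wild-type replicate 1). The exception was limma with sample weights, with 25 proteasome genes and 2508 genes in all. The count over all tested genes, 5 as reported, was 0 at a minimum of 0.5 FPKM, after median-of-ratios scaling, after quantile normalization and without the trend. It was 1 with no minimum and 1 at equal summed FPKM, from 5 to 62 when 1 library was left out, and 67 without both libraries numbered 2. All 4 tested choroid plexus markers were among these 67. The proteasome median exceeded that of all genes by 0.094 as reported. With no minimum the excess was 0.14, where the median of all 19511 genes was 0.0082. At a minimum of 5 FPKM, after quantile normalization, at equal summed FPKM and without heterozygous replicate 2 it was 0.076. Without heterozygous replicate 3 it was 0.13. Of the 36 genes, 9 turned below 0 in at least 1 alternative other than sample weights, 8 of them without both libraries numbered 2. In that last setting 34.7% of all tested genes were above 0. With a replicate block 13 genes passed, none of them a proteasome gene. The labels do not say that equal numbers mark a shared litter, batch or day, so the numbers were not taken as pairs. In their deviations from group means, libraries of the same number correlated at -0.28, -0.52 and 0.14. With 3 libraries per group such values cannot show whether the libraries were paired. Read numbers limit Psma8, Psmb9, Psme2b and Psmg4, which hold under 10 reads in each library.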
